A study of Caenorhabditis elegans with 3 samples.

Results

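The oocyte-sheath gap junction and major sperm protein (MSP) signalling genes of Caenorhabditis elegans are 9 listed genes: the sheath innexins inx-8 and inx-9, the germline innexins inx-14, inx-21 and inx-22, the MSP receptor vab-1, the sheath transcription factor ceh-18, and the sheath G protein pathway genes gsa-1 and acy-4. They were listed by name for their role, with earlier results of these data known. Of the 9, 6 had a row in the deposited table under their symbol or gene identifier, each a single row, out of 14956 named genes in all, and 5 had a value on every array. No row was matched to inx-21, inx-22 or acy-4, which are not analysed here, and inx-8 had no value on 1 array.

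RNA of fem-1(lf) animals was hybridised with RNA of fem-3(gf) animals on 3 two-colour arrays, 1 prep of each genotype per array. In fem-1(lf), a loss-of-function mutant, XX animals make oocytes but no sperm; in fem-3(gf), a gain-of-function mutant, XX animals make sperm but no oocytes. The 3 arrays, of preps 1, 2 and 3, are the replicates; the labels name no allele, age, tissue or temperature, and nothing in them states separate cultures for the preps, so a p-value covers only array-to-array spread, possibly technical. All values below are log2 ratios, written as fem-1(lf) over fem-3(gf), so that 1 unit is a factor of 2; a call is a limma adjusted p under 0.05 over all 19731 features tested.

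In hermaphrodites, oocytes are wrapped by contractile gonadal sheath cells and joined to them by gap junctions, channels built of innexin proteins. Sperm release MSP, which starts oocyte maturation and sheath contraction. MSP binds the Eph receptor VAB-1, which holds maturation back when sperm are absent, and acts through a Gα(s) and adenylyl cyclase pathway in the sheath that counters inhibition passing through the gap junctions. CEH-18, a POU homeodomain protein of the sheath, is needed for normal sheath cells and for the arrest of oocytes without sperm. In this comparison the 2 genotypes differ at once in their gametes and in the presence of the MSP signal.

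The 2 members with the highest ratios were vab-1 and inx-14, the sheath factor ceh-18 was the lowest, and the sheath innexins and gsa-1 lay between. On each array the 5 fully measured members stood in the same order: vab-1, inx-14, gsa-1, inx-9, ceh-18. Of these 5, 2 were higher in fem-1(lf), where 21.0% of all features were called, and 1 was higher in fem-3(gf), where 23.7% were called. Their median was -0.01, against -0.10 over all features tested. Where 0 lies matters for such counts. When every array was centred on 111 genes of muscle, intestine, cuticle and neurons, called the somatic genes below, 2 members lay higher in fem-1(lf) and 0 in the other genotype with limma at the same threshold, against 31.8% and 12.4% of all features, whose median that centring moved to 0.20. At an unadjusted limma p under 0.05, 1 member, ceh-18, was still higher in fem-3(gf) after that centring.

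**Figure D1:**
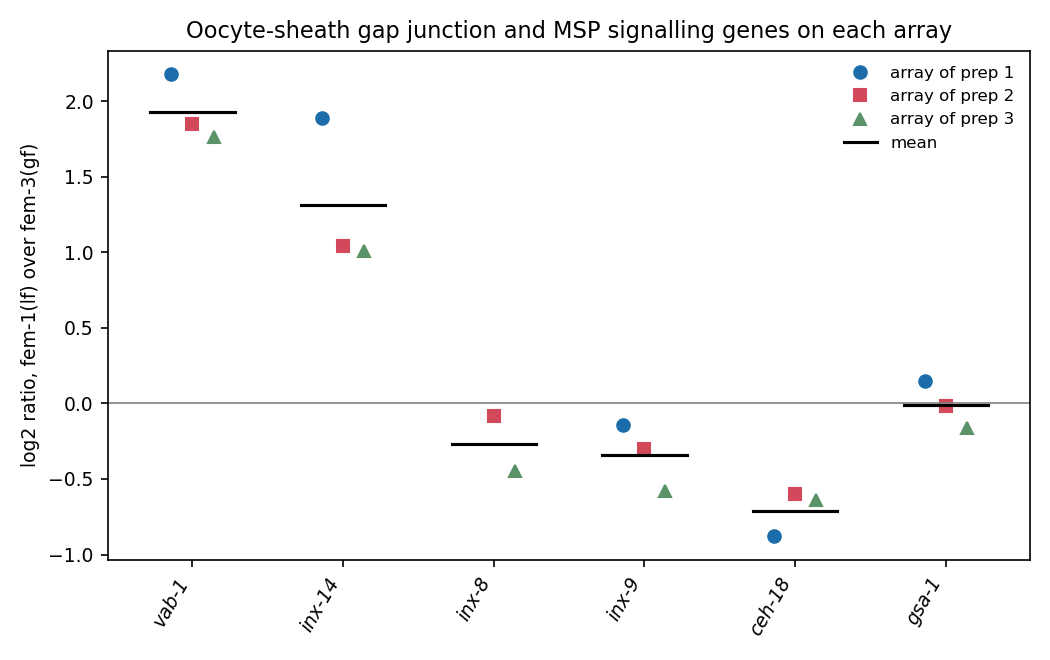
Log2 ratio of fem-1(lf) over fem-3(gf) for each measured member on each array (points) with the mean over the arrays (line). vab-1 and inx-14 lie above 1 on all 3 arrays, ceh-18 lies below -0.5 on all 3, and inx-8 has no value on the array of prep 1.

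Marker genes of oocytes and sperm were read on each array. They also served to infer the direction of the ratio, so they are no separate check of it. All 10 oocyte markers, with medians of 3.35, 2.43 and 2.34 on the arrays of preps 1, 2 and 3, were higher in fem-1(lf), and all 10 sperm markers, with medians of -4.78, -4.54 and -4.82, were higher in fem-3(gf). Which dye each genotype carried is not given in the labels. The direction of the ratio, positive for more RNA in fem-1(lf), is therefore only likely, from the wording of the descriptions and the side on which these markers lay. The yolk receptor gene rme-2 was at 3.22, 2.04 and 2.11, and spe-11, which encodes a sperm factor for the embryo, at -4.72, -4.80 and -5.06. The array of prep 1 had the widest spread of values, with an SD of 1.35 against 1.15 and 1.22, and the highest oocyte marker ratios. Of the 111 somatic genes, 9 were higher in fem-1(lf) and 37 higher in fem-3(gf), or 8.11% and 33.3%, against 21.0% and 23.7% of all features. Their median was -0.32. In RNA from mixed cells, fewer cells of a type and less RNA per cell cannot be told apart.

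The MSP receptor gene vab-1 (M03A1.1, chromosome II), which encodes the Eph receptor tyrosine kinase, was the member with the most RNA in fem-1(lf) relative to fem-3(gf). Its log2 ratios were 2.18, 1.85 and 1.76 on the arrays of preps 1, 2 and 3. All 3 arrays lay on the fem-1(lf) side and within 0.5 of each other. The mean was 1.93 ± 0.22 (SD, n = 3), 3.81-fold, with a 95% interval of 1.59 to 2.27 from limma (adjusted p = 0.00022). This mean stood at percentile 98.8 of all features tested. Without 1 of the arrays it was between 1.80 and 2.01.

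The named genes whose 3 ratios were nearest to those of vab-1 were psf-1, a subunit gene of the GINS replication complex, lin-54, a subunit gene of the DREAM complex, and hst-1, a heparan sulfate sulfotransferase gene. Their root mean square differences from vab-1 over the 3 arrays were 0.029, 0.037 and 0.045 on the log2 scale.

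The genes that encode the ligand lay on the other side. The 30 measured msp genes had a median of -6.11, -6.04 and -6.06 on the arrays of preps 1, 2 and 3. All 30 were higher in fem-3(gf) with limma, where 23.7% of all features were called. Whether the spot of an msp gene also reports other genes of the family was not tested. Of the 30, 29 had means of -4.10 or lower. The exception, msp-38, named after its value was seen, had -0.54, -0.46 and -0.56, a mean of -0.52 ± 0.05 (SD, n = 3, limma adjusted p = 0.0148), and did not pass with the somatic centring (adjusted p = 0.291), without prep 2 (0.0609) or without prep 3 (0.103).

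The sheath innexins and inx-14, the only germline innexin with a row, differed in their ratios. The germline innexin gene inx-14 (F07A5.1, chromosome I), whose product joins on the oocyte side of the junctions with INX-21 or INX-22, had ratios of 1.89, 1.04 and 1.01. All 3 arrays were on the fem-1(lf) side, and the array of prep 1 stood above the others. The mean was 1.31 ± 0.50 (SD, n = 3), 2.49-fold, with a 95% interval of 0.80 to 1.83 from limma (adjusted p = 0.00445). Without prep 1 it was 1.02, still called (limma adjusted p = 0.00363). On that array the oocyte markers were also highest, and the part of the array in the ratio of inx-14 was not tested.

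The sheath innexin gene inx-9 (ZK792.3, chromosome IV) had ratios of -0.14, -0.30 and -0.58 on the arrays of preps 1, 2 and 3. All 3 were below 0, on the fem-3(gf) side, but small. The mean was -0.34 ± 0.22 (SD, n = 3), with a 95% interval of -0.68 to -0.003, and it did not pass (limma adjusted p = 0.0904). Its partner inx-8 (ZK792.2), the neighbouring gene on chromosome IV, had -0.08 and -0.45 on the arrays of preps 2 and 3. With 2 arrays it was left out of the test on all 3; when features with 2 values were admitted, its mean of -0.27 did not pass (limma adjusted p = 0.272). The 2 sheath genes lay close together: inx-8 exceeded inx-9 by 0.21 and 0.13 on the arrays they share. They are close paralogs, so a spot of one may also report the other, which was not tested. The median of the somatic genes was -0.42, -0.30 and -0.17 on the arrays of preps 1, 2 and 3. Relative to it inx-9 was at 0.28, 0.01 and -0.41, and inx-8 at 0.22 and -0.28 on the arrays of preps 2 and 3. Each gene thus fell on both sides of that median.

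The difference between inx-14 and the sheath innexins held on every array that measured both, with no other germline innexin to compare. The ratio of inx-14 exceeded that of inx-9 by 2.04, 1.33 and 1.59, a mean of 1.65 ± 0.36 (SD, n = 3), or 3.15-fold. Against the mean of inx-8 and inx-9 it was higher by 1.23 and 1.53 on the arrays of preps 2 and 3. Such differences do not depend on where 0 is set on an array. An exact two-sided sign-flip permutation test over 3 arrays cannot give a p below 0.25, and it gave 0.25 for inx-14 against inx-9 (adjusted over 9 differences, p = 0.38), with the same sign on 3 of 3 arrays.

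Among neighbours in the order of the members, vab-1 exceeded inx-14 by 0.61 ± 0.28 (SD, n = 3), by 0.29 on the array of prep 1 and by 0.81 and 0.75 on the others. The gap from inx-14 down to gsa-1 was 1.32 ± 0.37, and that from gsa-1 down to inx-9 was 0.33 ± 0.08. The last pair, inx-9 over ceh-18, differed by 0.37 ± 0.34, with 0.74, 0.31 and 0.06 on the arrays of preps 1, 2 and 3, a gap about as large as its spread.

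The sheath factor gene ceh-18 (ZC64.3, X chromosome) had ratios of -0.88, -0.60 and -0.64 on the arrays of preps 1, 2 and 3. All 3 arrays lay on the fem-3(gf) side. The mean was -0.71 ± 0.15 (SD, n = 3), 1.63-fold, with a 95% interval of -1.01 to -0.40 (limma adjusted p = 0.00645). On each array it was below the median of the somatic genes; the gene minus that median was -0.46, -0.30 and -0.48. After centring on those genes the mean was -0.41 and the call was lost (limma adjusted p = 0.0536).

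Of the 4 sheath markers lim-7, ceh-18, mup-2 and fln-1, 2 were higher in fem-3(gf), ceh-18 and the troponin T gene mup-2, the latter at -1.3, -0.96 and -0.84. On that side 23.7% of all features and 33.3% of the somatic genes were called. The LIM homeobox gene lim-7, long used as a sheath marker, had 0.22, -0.41 and -0.28, and the filamin gene fln-1 had 0.39, -0.16 and -0.53; neither passed (limma adjusted p = 0.457 and 0.703). The mean log2 ratio of the 4 markers was -0.39, -0.53 and -0.57 on the arrays of preps 1, 2 and 3. That mean includes the member ceh-18 itself and mup-2, which is also in the muscle list and so among the somatic genes. Whether the amount of sheath tissue differed between the genotypes was not tested.

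The Gα(s) gene gsa-1 (R06A10.2, chromosome I), which acts in the sheath upstream of adenylyl cyclase, had ratios of 0.15, -0.02 and -0.16. The arrays fell on both sides of 0. The mean was -0.01 ± 0.16 (SD, n = 3), with a 95% interval of -0.32 to 0.30 (limma adjusted p = 0.952). Its sign depended on where 0 was set: the mean was 0.08 with arrays centred on their medians and 0.29 with the somatic centring, and it passed under neither.

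Over the innexin family as a whole, 21 of 25 genes had a row. Beside the members, 18 other innexins were tested, of which 2 were higher in fem-1(lf) and 5 higher in fem-3(gf). These are 11.1% and 27.8%, the first below the 21.0% of all features and the second near the 23.7%. The median of these innexins was -0.27. The somatic centring turned the counts to 4 and 0 with limma, or 22.2% and 0.00%, against 31.8% and 12.4% of all features. At an unadjusted p under 0.05 the latter count was also 0, and the median became 0.03. The highest ratio of all innexins was that of inx-3, which encodes an innexin widely made in embryos. It had 3.16, 1.41 and 1.47 on the arrays of preps 1, 2 and 3, a mean of 2.01 ± 0.99 (SD, n = 3, limma adjusted p = 0.00716), with the array of prep 1 far above the others.

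The next was inx-7, with 1.67, 1.21 and 1.38, a mean of 1.42 ± 0.23 (limma adjusted p = 0.000748). The ratio of inx-14 lay within its spread of inx-7, with a difference of -0.10 ± 0.31 (SD, n = 3), while inx-3 exceeded inx-14 by 1.26, 0.37 and 0.46 on the arrays of preps 1, 2 and 3. These 3 innexins were the only ones of the 21 above 1 on every array. No other innexin on the fem-1(lf) side passed: eat-5, a pharyngeal muscle innexin, ranged from -0.25 to 1.03 and inx-19 from 0.21 to 0.38. On the other side the called genes were small in ratio, led by inx-20 at -0.57 ± 0.28, inx-15 at -0.51 ± 0.12, inx-10 at -0.47 ± 0.12 and inx-6, a pharyngeal innexin, at -0.46 ± 0.19. The count of 5 on that side fell to 0 without prep 2 and to 0 without prep 3, and was 3 without prep 1. Calls of all features on that side also fell, from 23.7% to 15.8%, 13.8% and 20.5% in turn.

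**Figure D2:**
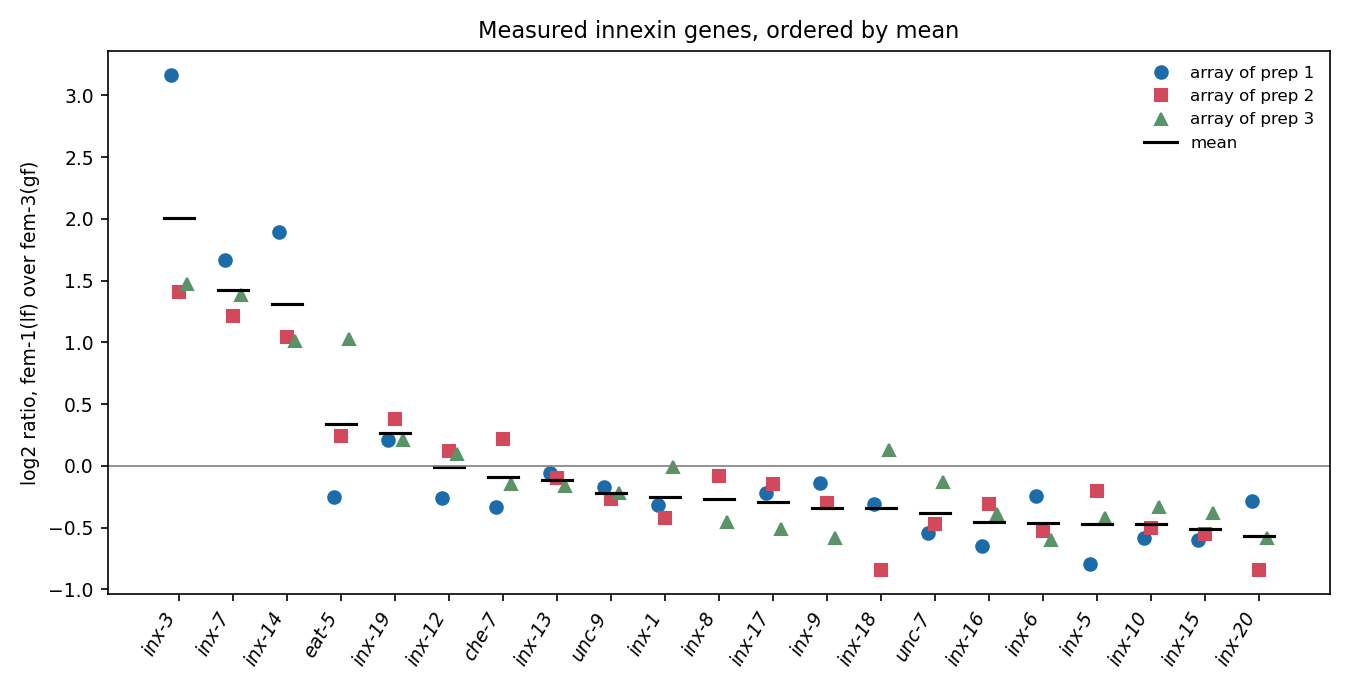
Log2 ratio of fem-1(lf) over fem-3(gf) on each array (points) and mean (line) for the 21 measured innexin genes, ordered by mean. inx-3, inx-7 and inx-14 stand above 1 on all 3 arrays and the sheath genes inx-8 and inx-9 lie among the other innexins between 0 and -0.6.

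Ephrin genes and genes reported to act with VAB-1 fell on both sides. Of 8 tested, 3 were higher in fem-1(lf) and 2 higher in fem-3(gf), or 37.5% and 25% against 21.0% and 23.7% of all features, with a median of 0.39. With the somatic centring the counts by limma were 5 and 0, the latter also 0 at an unadjusted p under 0.05, where 31.8% and 12.4% of all features were called. The 3 higher in fem-1(lf) on the deposited scale were dab-1, a Disabled-type adaptor gene, at 1.84, 1.87 and 1.94, ran-1, which encodes the Ran GTPase, at 2.21, 1.57 and 1.47, and ptp-2, an SHP2-type phosphatase gene, at 2.09, 1.25 and 1.52. These values came close to those of vab-1. The rows of dab-1, 2 in all, had means of 1.77 and 2.00. Means of dab-1, ran-1 and ptp-2 were 1.88 ± 0.05, 1.75 ± 0.40 and 1.62 ± 0.43 (SD, n = 3), with limma adjusted p-values of 0.000116, 0.0009 and 0.00135.

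The ephrin gene efn-4, by contrast, was at -0.69, -0.28 and -0.73, with a mean of -0.57 ± 0.25 (limma adjusted p = 0.0228), and unc-43, which encodes the calcium/calmodulin-dependent kinase CaMKII, at -0.49, -0.23 and -0.42 (limma adjusted p = 0.0485). Both calls were lost without prep 3 (adjusted p = 0.135 and 0.22) and without prep 1 (adjusted p = 0.0613 and 0.107). The call of unc-43 was also lost without prep 2 (adjusted p = 0.0973). The ephrin gene efn-3 at 0.47 ± 0.44 did not pass (limma adjusted p = 0.0907).

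In the G protein and cAMP pathway, pde-4 stood apart. Of 17 other genes tested, 1 was higher in fem-1(lf) and 5 higher in fem-3(gf), or 5.88% and 29.4%, against 21.0% and 23.7% of all features. Their median was -0.28. With the somatic centring these counts were 6 and 1, or 35.3% and 5.88%, against 31.8% and 12.4% of all features. The cAMP phosphodiesterase gene pde-4 had -1.70, -1.69 and -1.54, a mean of -1.64 ± 0.09 (SD, n = 3), 3.13-fold higher in fem-3(gf) (limma adjusted p = 0.000223), and was at -1.35 after that centring. The regulatory subunit of protein kinase A, kin-2, had -0.51, -0.51 and -0.54. Its mean of -0.52 ± 0.02 passed (limma adjusted p = 0.014), but was -0.22 with the somatic centring and then did not.

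The Gα(o) gene goa-1, which acts against the Gα(s) pathway in oocyte maturation, was the one higher in fem-1(lf), at 0.81, 0.58 and 0.79, a mean of 0.73 ± 0.12 (limma adjusted p = 0.0053). The adenylyl cyclase gene acy-3 was at -0.47 ± 0.08 and the Gγ gene gpc-1 at -0.47 ± 0.25 (limma adjusted p = 0.022 and 0.0427). Calls of kin-2, acy-3 and gpc-1 were lost without prep 2 and without prep 3, and those of acy-3 and gpc-1 also without prep 1. The count of 5 on the fem-3(gf) side then was 1 without prep 2, 1 without prep 3 and 2 without prep 1. Over all features, calls on that side fell from 23.7% to 15.8%, 13.8% and 20.5% in turn. The cyclase gene acy-2 had -0.42, -2.47 and -0.45, so that the array of prep 2 set its mean of -1.11 ± 1.18, which did not pass (adjusted p = 0.0788).

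All 9 genes listed for oocyte maturation had mean ratios above 0. Of 9 tested, 7 passed on that side and 0 on the other with limma, also 0 at an unadjusted p under 0.05. These are 77.8% and 0.00%, against 21.0% and 23.7% of all features. Their median was 1.44, or 2.71-fold. With the somatic centring these counts were 8 and 0, or 88.9% and 0.00%, against 31.8% and 12.4% of all features. The zinc finger gene oma-2 was at 4.15, 3.25 and 3.07, the translational regulator lin-41 at 3.40, 2.14 and 2.18, and oma-1 at 2.24, 1.81 and 2.25. The Cdc25-type phosphatase gene cdc-25.2, which activates the maturation kinase, was at 1.68, 1.32 and 1.45. For all 4 the arrays lay well above 0, with adjusted p-values from limma of 0.000161 to 0.000995. The mitogen-activated kinase gene mpk-1, which is activated in maturing oocytes, had the smaller mean of 0.62 ± 0.02, which did not pass without prep 3 (limma adjusted p = 0.0597), and wee-1.3 and the Aurora B gene air-2 did not pass, at 0.23 and 0.05. The genes oma-1 and oma-2 are also among the oocyte markers.

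Genes of sheath and spermatheca contraction showed no common side. Of 18 tested, 2 were higher in fem-1(lf) and 4 higher in fem-3(gf), or 11.1% and 22.2%, against 21.0% and 23.7% of all features. Their median of -0.10 equalled that of all features. With the somatic centring these counts were 3 and 2, or 16.7% and 11.1%, against 31.8% and 12.4% of all features. The EGF gene lin-3, whose product is made by the germline and acts on the sheath, was at 1.48, 0.92 and 0.89, a mean of 1.10 ± 0.33 (SD, n = 3, limma adjusted p = 0.00339). Its receptor gene let-23 was on the other side, at -0.96, -0.73 and -0.56, a mean of -0.75 ± 0.20 (limma adjusted p = 0.00667). The ratios of lin-3 and let-23 thus had opposite signs on each array. The β-integrin gene pat-3 was at 1.19, 1.76 and 1.72 (limma adjusted p = 0.000852).

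Downstream of the EGF receptor, the inositol trisphosphate receptor gene itr-1 had a mean of -0.02 ± 0.12 and the phospholipase C gene plc-1 a range of -0.56 to 0.58, and neither passed. The remaining genes called higher in fem-3(gf) were mup-2, at -1.04 ± 0.24, the forkhead gene fkh-6, at -0.54 ± 0.20, and the nonmuscle myosin gene nmy-1, at -0.42 ± 0.12 (limma adjusted p = 0.00246, 0.0214 and 0.0344). The call of fkh-6 was lost without prep 3 (adjusted p = 0.146), and that of nmy-1 was lost when any 1 array was left out (adjusted p between 0.0675 and 0.203). Of the 18 genes, 6 are also in the muscle list.

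**Figure D3:**
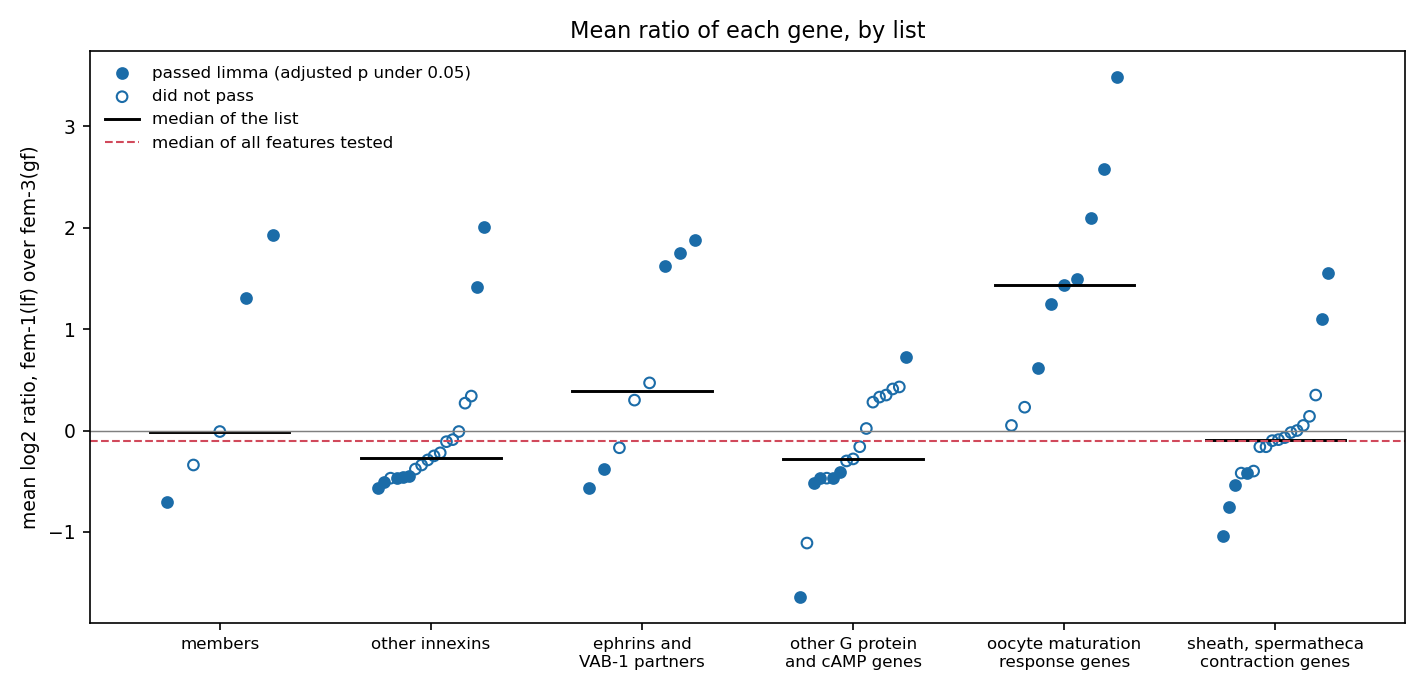
Mean log2 ratio of fem-1(lf) over fem-3(gf) for each tested gene (points) of the members and of 5 related lists, with the list median (black line) and the median of all features at -0.10 (dashed line). Filled points passed limma. The oocyte maturation response genes lie above 0. The ephrins and VAB-1 partners have a median of 0.39, above the dashed line. Medians of the members and the other lists lie between -0.28 and -0.01, with some genes far from the line.

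Genes next to the members on their chromosomes mostly had small ratios. Of 14 neighbouring protein-coding genes, 8 were tested and 4, or 50.0%, passed, all higher in fem-3(gf), where 23.7% of all features were called. Without any 1 of the arrays, and with either centring, 1 was left on that side, spsp-1, or 12.5%. Of all features, 13.8% to 20.5% were called there without 1 array, 18.3% with median centring and 12.4% with somatic centring. The gene beside inx-14, spsp-1, was at -3.24, -5.80 and -6.51, a mean of -5.18 ± 1.72 (SD, n = 3, limma adjusted p = 0.00144). The pair inx-14 and spsp-1 therefore lay on opposite sides on all 3 arrays. The others that passed were near -0.4: M03E7.1 beside acy-4 at -0.42, R06A10.1 beside gsa-1 at -0.38 and ZK792.4 beside inx-9 at -0.46, with adjusted p-values from limma of 0.0453 to 0.0471. The unmeasured germline innexins inx-22 and inx-21 are also neighbours of each other, on chromosome I.

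The calls of vab-1 and inx-14 did not depend on where 0 was set or on any 1 array, while that of ceh-18 depended on the first. With each array left out in turn, vab-1 had limma adjusted p-values of 0.000618 to 0.00188, inx-14 of 0.00363 to 0.0132 and ceh-18 of 0.017 to 0.0369. Against a 1.5-fold difference, vab-1 and inx-14 passed limma treat (adjusted p = 0.000754 and 0.0428) and ceh-18 did not (0.663).

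**Figure D4:**
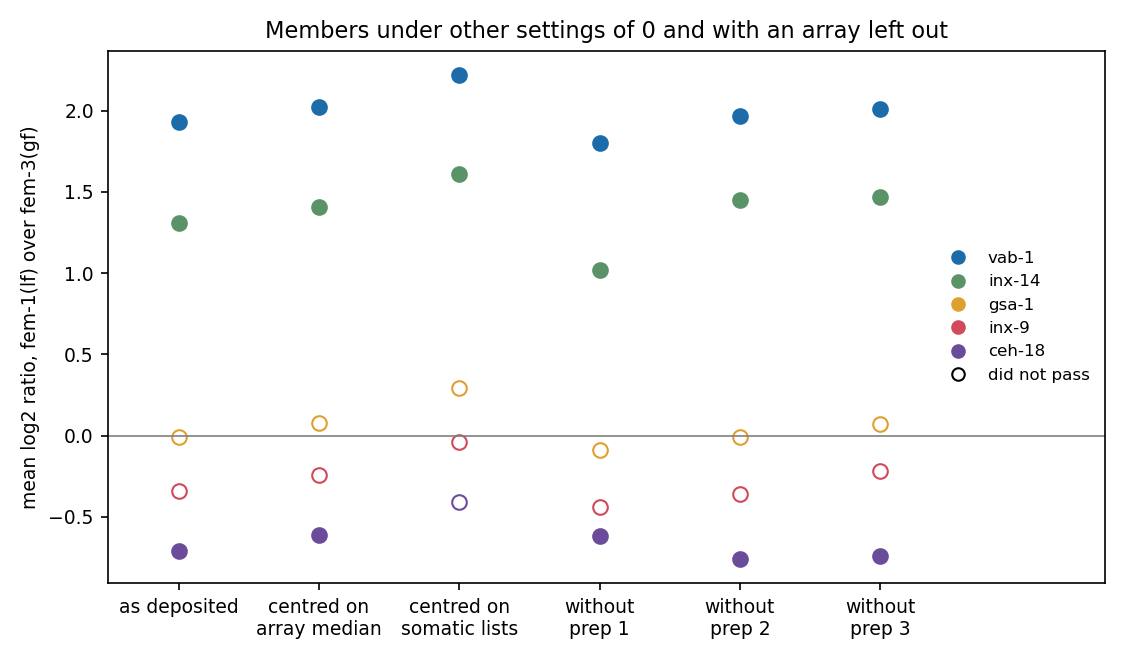
Mean log2 ratio of the 5 members measured on every array, as deposited, with each array centred on its median or on the somatic genes (somatic lists), and with 1 array left out. Filled points passed limma; vab-1 and inx-14 are filled under all 6 settings, ceh-18 under all but the somatic centring, and gsa-1 and inx-9 under none.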

How the data were processed

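Per the labels, each sample is a two-colour array with fem-3(gf) RNA in channel 1 and fem-1(lf) RNA in channel 2. The deposited values are log2 ratios; base 2 was inferred, as it turns 99.99% of them into whole thousandths (tolerance 0.01) and other bases 3.112% or fewer. Scaling, background correction and dyes: not given in the sources used here. No dye swap is stated, and spot intensities were not analysed, so dim spots could not be weighed.

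Rows were named by gene ID, accession or platform symbol through the 2007 platform annotation and RefSeq assembly WBcel235, and rows of a gene averaged (14956 named genes, 4914 rows without and 247 with several genes). Features on all 3 arrays, 19731 in number, were fitted across the whole table with limma 3.58.1 in R 4.3.3 (intercept against 0, eBayes, Benjamini-Hochberg, two-sided); the median SD between arrays was 0.22. The fit was tested on simulated data. Folds are 2 to the power of the mean's size.

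The members and lists were chosen with earlier results of these data known. Named were all members, up to 4 called genes per list and direction with the same sign on every array, neighbours, the 3 genes nearest to the largest member, and marker examples; list genes that did not pass, the single values of mpk-1, and the differences of inx-14 from inx-3 and inx-7, were picked after their values were seen. Of 9 differences between members, 2 were planned and 7 chosen after; the planned one of gsa-1 and acy-4 had no data. Of the list names, 3 (efn-1, pqn-19, opt-2) were not in the gene table. Alternatives were other centring, scaling, features on 2 arrays, each array left out, robust eBayes, single rows, an adjusted p under 0.01, limma treat, and a 1.5-fold ratio on each array. Figures used matplotlib 3.10.9.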

Additional observations from a re-analysis of the deposited data

How the results depend on the processing

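Counts below are of genes higher in fem-1(lf) and then in fem-3(gf), and only those that moved by over 1.5 times are given; the main counts were 2 and 1 for the members, 2 and 5 for the other innexins, 3 and 2 for the VAB-1 partners, 1 and 5 for the G protein genes and 2 and 4 for the contraction genes. Centred on the array median, the innexins had 1 higher in fem-3(gf), the VAB-1 partners 5 and 1, and the G protein genes 5 and 3. Centred on the somatic lists, the members had 0 higher in fem-3(gf), the innexins 4 and 0, the partners 5 and 0, the G protein genes 6 and 1 and the contraction genes 2 in fem-3(gf); the members' median became 0.29. With scaled arrays the innexins had 3 and the partners and G protein genes 5 in fem-1(lf), and 3, 1 and 3 in fem-3(gf). With features on 2 arrays, and with single rows, the partners had 1 in fem-3(gf). At an adjusted p under 0.01 the counts in fem-3(gf) were 0, 0, 1 and 2 for innexins, partners, G protein and contraction genes. With treat, fem-3(gf) had 0 members, innexins, partners and contraction genes and 1 G protein gene, and fem-1(lf) 0 G protein and 1 contraction gene. With 1.5-fold on each array, fem-3(gf) had 0 innexins and partners, 1 G protein and 1 contraction gene, and fem-1(lf) 0 G protein genes. With 1 array left out, counts in fem-3(gf) were 0 to 3 innexins, 0 to 1 partners, 1 to 2 G protein and 2 to 3 contraction genes, and in fem-1(lf) 1 to 2 G protein genes, and the members' median was -0.18 to 0.07. The ratio of gsa-1 turned to 0.08 with median centring and with scaling, 0.29 with somatic centring and, with 1 array left out, lay between -0.09 and 0.07, and inx-14 minus inx-7 to 0.03 without replicate 3 (lowest -0.27). Calls over all features moved too. Of all features, 23.7% were called higher in fem-3(gf) in the main fit. That share was 18.3% with median centring, 12.4% with somatic centring and 19.0% with scaling. It was 12.9% at an adjusted p under 0.01, 9.19% with treat and 13.8% to 20.5% without 1 array. For fem-1(lf) these shares were 21.0%, 23.8%, 31.8%, 24.6%, 13.7%, 7.25% and 14.6% to 20.3% in turn. Features on 2 arrays gave 23.2% for fem-3(gf) and single rows 23.5%. The changes with a stricter threshold follow from its construction. Otherwise the cause was not tested. Both genotypes share each array, so the fit of the ratios against 0 is itself the paired analysis.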
